A study of Caenorhabditis elegans with 2 samples.

Results

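The 9 genes described here encode proteins of the apical junctions and of apical-basal polarity in the epithelia of Caenorhabditis elegans: ajm-1, dlg-1, let-413, hmr-1, hmp-1, hmp-2, sma-1, crb-1 and che-14. They were chosen by name, as 9 of 19973 protein-coding genes, and each was examined from 2 kb upstream of its first annotated start to its end, with all alternative starts included. Binding of ELT-3, an epidermal regulator with a GATA-type zinc finger, was mapped by chromatin immunoprecipitation sequencing (ChIP-seq) in whole larvae of the L1 stage, the first after hatching. There was 1 group of 2 biological replicates of mixed sex, and no other condition. Both came from strain OP75, genotype unc-119(ed3) III; wgIs75, which carries ELT-3 with a GFP-FLAG tag at its C-terminus from a stable transgene, so the unc-119 mutation and the tagged copy were present in both replicates. The labels give elt-3 as the antibody target, and whether the antibody bound ELT-3 or its tag is not given in the sources used here. Signals from all tissues of the larva were read together.

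Epithelial cells of the worm are joined near their apical surface by a junction with a pair of adjacent modules. In the first, the classical cadherin HMR-1 is tied to actin through the beta-catenin HMP-2 and the alpha-catenin HMP-1. In the second, slightly more basal, the MAGUK scaffold DLG-1 (Discs large) holds the coiled-coil protein AJM-1, and the basolateral protein LET-413, the worm relative of Scribble, gathers both modules into a belt. CRB-1 is the Crumbs protein of the apical membrane, SMA-1 the apical beta-heavy spectrin that the embryo needs to elongate, and CHE-14 a Dispatched-like membrane protein used in apical secretion by epidermis and glia.

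No ELT-3 peak that passed the authors' reproducibility threshold touched any of the 9 genes, and only weaker peaks lay there. The best of these was in an intron of sma-1, just below the threshold. The sequences 50 bp to either side of the summit (the peak's central base) are shown for the strongest pooled peak at 5 of the 7 genes that had one, to set the bases at these weak peaks side by side. Those of che-14 and hmr-1, which both hold a motif, are described in words with their genes. Capitals mark the GATA motif WGATAR, the letters GATA with A or T before and A or G after, on either strand. All are the plus strand of WBcel235 (ce11, the build of all positions given) from RefSeq, 5′ to 3′, 101 bases each. The genes sma-1, ajm-1 and dlg-1 run along this strand, and let-413 and crb-1 run against it.
sma-1 (chrV:11902329-11902429): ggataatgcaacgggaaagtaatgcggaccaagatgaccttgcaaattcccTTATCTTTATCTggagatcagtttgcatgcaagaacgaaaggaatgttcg
let-413 (chrV:7975690-7975790): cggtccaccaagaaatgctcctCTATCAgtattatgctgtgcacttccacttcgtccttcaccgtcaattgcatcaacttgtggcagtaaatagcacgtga
ajm-1 (chrX:9102524-9102624): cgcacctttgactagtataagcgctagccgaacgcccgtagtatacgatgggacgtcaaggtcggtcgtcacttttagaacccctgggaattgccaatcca
crb-1 (chrX:17413741-17413841): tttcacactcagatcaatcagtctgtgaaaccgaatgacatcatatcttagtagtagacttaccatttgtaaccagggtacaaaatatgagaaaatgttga
dlg-1 (chrX:5479431-5479531): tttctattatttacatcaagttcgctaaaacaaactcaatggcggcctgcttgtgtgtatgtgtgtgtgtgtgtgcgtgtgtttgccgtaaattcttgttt
The sma-1 site holds abutting motifs, TTATCT from 11902380 to 11902385 and TTATCT from 11902386 to 11902391, both on the minus strand and centred 3.5 and 9.5 bp from the summit. The let-413 site holds CTATCA centred 25.5 bp from the summit. The other 3 windows shown have no match, which says only that these letters are not within 50 bp of those summits.

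The thresholded set, 1262 peaks called on the pooled reads of both replicates and kept for reproducibility, had peaks in 0 of the 9 gene windows, against 6.37% of all protein-coding genes. Nor did a peak reach a promoter window of any of their starts, from 1000 bp upstream to 250 bp downstream, against 3.96% of all genes. With 9 genes, a share of 6.37% would itself give 0.573 genes. The windows of these genes are long, with a median of 9.67 kb against 4.03 kb for all genes, and cover 163.9 kb together. At the density of the whole genome, 0.126 peaks per 10 kb, that length would hold 2.06 peaks, and it held 0. No test was made of this difference, since the design has no second condition and the genes were chosen with earlier results known.

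The full pooled list holds 5659 peaks, which include background, and the authors' threshold separates its strongest 1262. In it 7 of the 9 genes had at least 1 peak, against 24.1% of all protein-coding genes. Per length the difference was smaller: 14 peaks at 0.854 per 10 kb, against 0.589 over all protein-coding gene windows and 0.564 over the genome, where the same length would hold 9.25. In promoter windows of any start, 5 of the 9 genes had a pooled peak (ajm-1, dlg-1, sma-1, crb-1 and che-14), against 13.3% of all genes. Genes with many starts have many such windows, as ajm-1 with 14 starts. Its peak there counted through an internal start, not the first, and ranked 5608 of 5659. The pooled signal of the 14 peaks, in the authors' unit, ran from 24.5 to 40.6 with a median of 27.3, and the 4397 pooled peaks below the threshold had a median of 28.2. The weakest thresholded peak had a signal of 42.9 and a q-value of 0.0513. The q-values of the 14 ran from 0.0751 to 0.959, as the authors gave them.

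**Figure D1:**
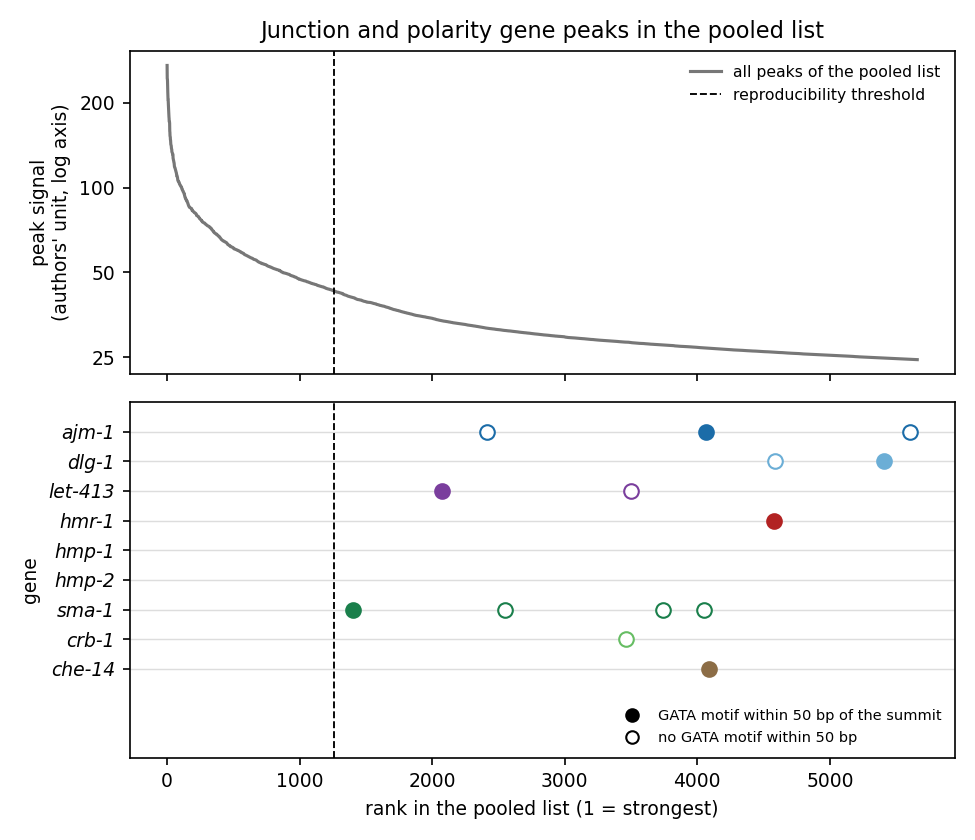
The upper panel plots the signal of every peak of the pooled list, in the authors' unit on a log axis, against its rank, and the lower panel places the 14 peaks of the 9 genes on the same ranks, filled where a GATA motif lies within 50 bp of the summit. All 14 lie to the right of the dashed threshold at 1262, the sma-1 peak at rank 1405 nearest to it, and hmp-1 and hmp-2 have none.

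sma-1, the apical spectrin gene, came nearest to the threshold and had the most pooled peaks, 4. It lies on chromosome V from 11899449 to 11916623, on the plus strand, with 5 annotated starts over 3.38 kb. Its strongest peak (V:11902251 to 11902506) had a pooled signal of 40.6, rank 1405 and q = 0.0751, which is 94.7% of the weakest thresholded signal. The replicates differed at this site. In replicate 1 the overlapping peak had a signal of 14.5 and ranked 6619 of 25325 (q = 0.709). In replicate 2 it had a signal of 25.1 and ranked 822 of 26500 (q = 0.025), with summits 9 and -4 bp from the pooled one. The peak's high place in the pooled list therefore goes with a high rank in replicate 2 and not in replicate 1. The summit lay in an intron of 609 bp in 4 transcripts, 2930 bp downstream of the first start and 454 bp upstream of the nearest internal start, so that it counts as upstream of the short isoforms.

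The other sma-1 peaks were weaker. One lay 1024 bp upstream of the first start (V:11898297 to 11898552, pooled signal 31.1), with a signal of 10.6 at rank 19250 in replicate 1 and 17.3 at rank 2233 in replicate 2. Again replicate 2 ranked it far higher. The remaining pair lay in coding exons 13346 and 14860 bp from the first start, with pooled signals of 26.9 and 27.6, and there the order turned. The first had a signal of 17.5 in replicate 1, rank 3286, and 8.57 in replicate 2, rank 23601. The second had 16.7 in replicate 1, rank 3910, and no listed peak in replicate 2. None of the 4 sma-1 sites was among the 1262 strongest peaks of both replicates.

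let-413, the Scribble relative (V:7973078 to 7977776, minus strand), had the next strongest peak, in a coding exon (V:7975612 to 7975867, pooled signal 33.6, rank 2073, q = 0.327). It had a signal of 15.5 in replicate 1, rank 5091, and 17.9 in replicate 2, rank 1965. It lay 1888 bp downstream of the nearest start. A further peak 1137 bp upstream of the first start (V:7978785 to 7979040, pooled signal 28.1) overlapped the non-coding RNA gene F26D11.16. Its signal in replicate 1 was 22.99, rank 1406 and q = 0.101, and replicate 2 had no listed peak there.

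ajm-1 has the most starts of the 9, spread over 22.6 kb of a gene from X:9082946 to 9113619 on the plus strand. It had 3 pooled peaks, all in introns. The strongest (X:9102446 to 9102701, pooled signal 31.6, rank 2413) lay 19628 bp from the first start and 1188 bp upstream of an internal one. It had a signal of 15.9 in replicate 1, rank 4673, and 12.5 in replicate 2, rank 7099. The second (X:9088670 to 9088925, pooled signal 26.9) had 14.6 and 16.2, at ranks 6447 and 2748, and held a CTATCA centred 28.5 bp from the summit. The third (X:9096011 to 9096266, pooled signal 24.5) ranked 5608 of 5659, near the end of the list, over the non-coding RNA gene H08J11.9. All 3 were listed in both replicates, and none was among the 1262 strongest peaks of either.

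dlg-1, the gene of AJM-1's partner, is short and has a single start (X:5479700 to 5484941, plus strand). Its pooled peaks were among the weakest of the 14. The one 219 bp upstream of the start (X:5479353 to 5479608, pooled signal 26.0) had a signal of 11.5 in replicate 1, rank 14910, and 12.4 in replicate 2, rank 7316. The one in a coding exon (X:5481505 to 5481760, pooled signal 24.8) had 15.9 and 10.8, at ranks 4709 and 12009, and held TTATCA centred 7.5 bp from the summit. The strongest peaks of the single replicates at dlg-1 lay elsewhere, in the first intron. Replicate 1 had one 437 bp from the start (signal 24.8, rank 1163, q = 0.0538), which no replicate 2 peak overlapped. Replicate 2 had one 729 bp from the start (signal 19.0, rank 1642, q = 0.142), which no replicate 1 peak overlapped. Neither overlapped a pooled peak. The summit of the replicate 2 peak lay in an exon of the non-coding RNA gene C25F6.26.

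crb-1, the Crumbs gene (X:17402532 to 17414014, minus strand), had 1 pooled peak, in its first intron 223 bp from its only start (X:17413663 to 17413918, pooled signal 28.2, rank 3463). Replicate 2 had it at a signal of 19.9, rank 1456 and q = 0.0924, and replicate 1 had no listed peak there. The non-coding RNA gene F11C7.8 covers the same summit. che-14 (I:5746633 to 5754306, plus strand) had 1 pooled peak, 84 bp upstream of its start (I:5746421 to 5746676, pooled signal 26.9, rank 4085). It had a signal of 13.5 in replicate 1, rank 8585, and 14.5 in replicate 2, rank 4028, with a motif centred 38.5 bp from the summit. Of the 14 peaks it was the nearest to a start, and it was weak in both replicates.

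The cadherin and catenin genes had 1 pooled peak together, at hmr-1. It is the longest of the 9 (I:11075755 to 11134667, minus strand, 4 starts over 50.6 kb), with a long form known from neurons. Its 1 pooled peak (I:11105795 to 11106050, signal 26.0, rank 4582) lay in an intron of 18310 bp of that long form, 11397 bp upstream of the nearest start. It had signals of 12.2 and 11.4, at ranks 12159 and 9802 in replicates 1 and 2, and a TTATCA centred 11.5 bp from the summit. Over 60.9 kb this gene had 0.164 pooled peaks per 10 kb, below the 0.564 of the genome. The replicates listed 11 and 12 peaks there, 1.81 and 1.97 per 10 kb. The strongest in replicate 2 lay in an intron 2406 bp downstream of the nearest start (signal 20.2, rank 1391, q = 0.0852), and no replicate 1 or pooled peak overlapped it. The strongest in replicate 1 lay in a coding exon (signal 15.0, rank 5865), also with no overlapping peak in the other replicate. hmp-1 (V:11845871 to 11852166, plus strand) and hmp-2 (I:14738882 to 14742671, plus strand) had no pooled peak. The strongest replicate peaks at hmp-1 had signals of 10.7 (rank 18905) and 9.003 (rank 20786). The first lay upstream of the first start, in an exon of the non-coding RNA gene R13H4.11, and the second at the 3' end. At hmp-2 the strongest replicate peaks had signals of 14.04 (rank 7393) and 9.04 (rank 20525), and the first lay in a coding exon of the neighbour K05C4.7.

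**Figure D2:**
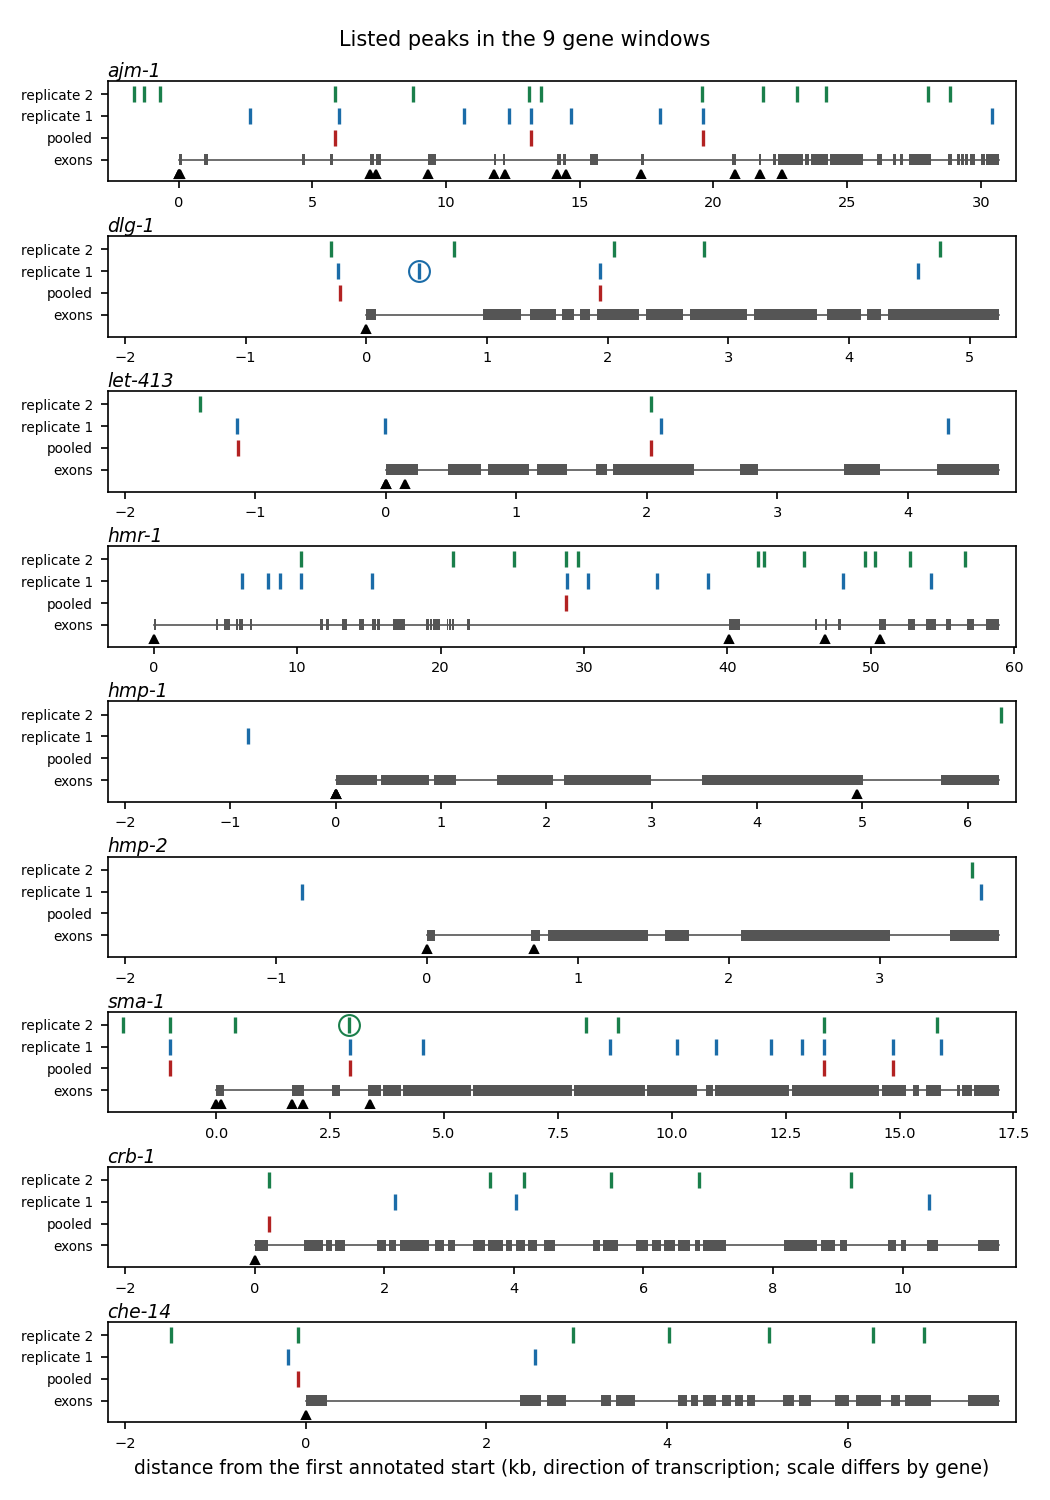
Each row is 1 gene with its exons (boxes), annotated starts (triangles) and the summits of listed peaks (ticks) in the pooled list and in each replicate, by distance in kb from the first start in the direction of transcription. Open circles mark the only peaks among the 1262 strongest of a replicate, at dlg-1 in replicate 1 and at sma-1 in replicate 2.

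The replicate lists, which run far into background, had peaks in all 9 windows. Replicate 1 had 47 and replicate 2 had 55, with at least 1 at each gene, against 70.7% and 72.1% of all protein-coding genes. Per 10 kb this came to 2.87 and 3.35 peaks, against 2.68 and 2.77 over all gene windows and 2.53 and 2.64 over the genome. Of the 47 in replicate 1, 17 overlapped a peak of replicate 2, 36.2% against 34.6% of the whole list. Of the 55 in replicate 2, 17 overlapped one of replicate 1, 30.9% against 33.1%. Both shares were close to those of the whole lists. The largest numbers of peaks shared between the replicates were 5 at sma-1 and 3 each at ajm-1 and dlg-1, and hmp-1 had 0. With each replicate cut to its 1262 strongest peaks, 1 of the 9 genes had a peak in each: dlg-1 in replicate 1, against 5.94% of all genes, and sma-1 in replicate 2, against 6.42%. No gene had one in both.

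**Figure D3:**
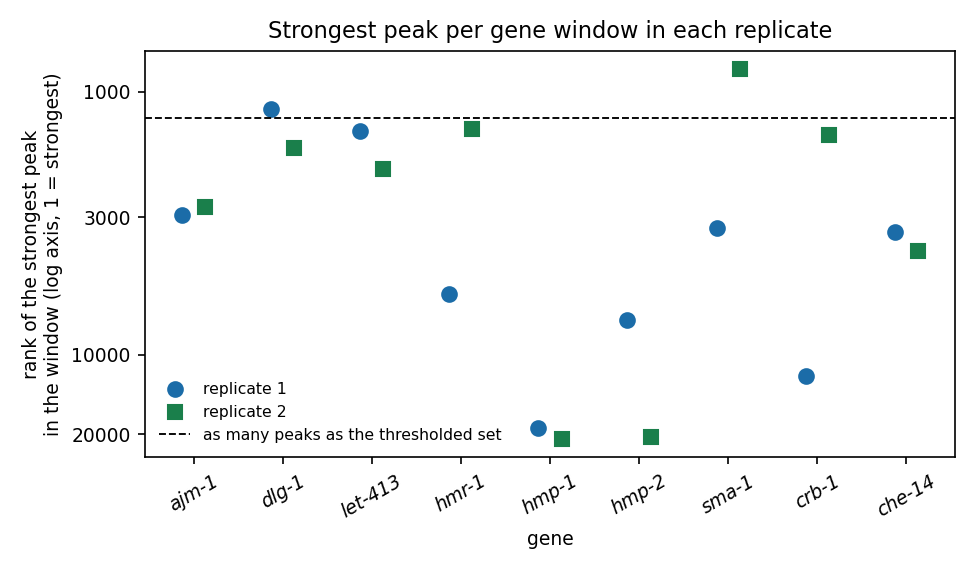
The rank of the strongest listed peak in each gene window is plotted on a log axis for replicate 1 (circles) and replicate 2 (squares), with the strongest at the top. Only dlg-1 in replicate 1 (rank 1163) and sma-1 in replicate 2 (rank 822) lie above the dashed line at 1262, and hmp-1 is lowest in both.

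The weak peaks were described by where they lay and by their motif. Of the 14 summits, 6 lay in introns, 4 in coding exons and 4 upstream of the first start. The share in coding exons, 28.6%, was near the 26.4% of all pooled peaks below the threshold, while 1.82% of thresholded peaks lay in a coding exon of any protein-coding gene. The measures are unlike, since the 14 lie in gene windows by choice and were scored on their own gene. The list shares cover all peaks, also those outside gene windows. A WGATAR motif was found 50 bp or less from the summit in 6 of the 14, 42.9%, against 28.9% of pooled peaks below the threshold and 50.2% of thresholded ones. Within 25 bp it lay in 3 of the 14, and within 100 bp in 9. The sma-1 peak at rank 1405 was the only one of the 14 with 2 motifs, and 7.78% of peaks below the threshold and 21.9% of thresholded peaks had 2 or more. The replicates both listed a peak at 11 of the 14, 78.6%, against 76.8% of all pooled peaks below the threshold.

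Motifs occurred in these windows at a density near that of the genome. The 9 windows held 369 WGATAR matches, 2.25 per kb against 2.38 per kb of the genome, from 1.72 per kb at hmr-1 to 3.45 at dlg-1. Of the 369, 7 were centred within 50 bp of a pooled summit. The promoter window of the first start held a motif in 8 of the 9 genes, against 93.9% of all genes, with hmp-2 highest at 6 matches and hmp-1 at 0. Over all starts 9 of 9 had one, against 95% of all genes.

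The nearest thresholded peaks lay outside the windows, by 4.02 to 66.5 kb with a median of 16.7 kb. The closest, 4.02 kb upstream of the crb-1 window (X:17420038 to 17420293, signal 43.3), lay 1302 bp downstream of the start of osm-11, an osmotic response gene. The strongest was 9.51 kb upstream of the dlg-1 window (X:5467933 to 5468188, signal 142.4, rank 29), 191 bp downstream of the start of dpyd-1, for dihydropyrimidine dehydrogenase. The one 9.13 kb upstream of sma-1 (V:11888061 to 11888316, signal 46.6) lay 59 bp upstream of adh-1, an alcohol dehydrogenase gene. For hmp-1 the distance was 6.97 kb, to a peak of signal 73.0 nearest to R13H4.5, and for hmp-2 it was 16.7 kb, to one of 51.4 at tmem-107. For ajm-1 it was 33.3 kb (signal 60.4, nearest to B0563.5) and for let-413 46.6 kb (56.6, F43H9.4). For hmr-1 it was 65.8 kb (50.6, ztf-6) and for che-14 66.5 kb (48.7, aprt-1).

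A wider list of 45 junction, polarity, cadherin, claudin-like and apical cytoskeleton genes was set beside the 9. Of these, 7 had a thresholded peak in the gene window, 15.6% against 6.37% of all genes, but their windows are long too (median 10.2 kb), and per 10 kb they had 0.109 peaks against 0.126 over the genome. The strongest was at lgl-1, which encodes the polarity protein Lgl (X:864417 to 864672, signal 132.6, rank 40). It had signals of 61.1 and 69.6, at ranks 71 and 28 in the replicates, so both placed it near the top. This summit lay in the 3' UTR of lgl-1, 6544 bp from its start and 967 bp upstream of cdo-1, a cysteine dioxygenase gene.

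The other 6 thresholded peaks had signals from 43.1 to 51.8, and none had WGATAR within 50 bp of the summit. The values of 5 of them follow. At clc-2, for a claudin-like protein, a peak 783 bp upstream had a signal of 51.8, with 29.7 and 22.6 in replicates 1 and 2. The L1CAM-like adhesion gene sax-7 had an intronic one of 48.2 (22.1 and 25.3), and the alpha-spectrin gene spc-1 one 802 bp upstream of 47.6 (28.6 and 16.4). At pkc-3, the atypical protein kinase C of the PAR complex, a peak 265 bp upstream had a signal of 44.1 (25.2 and 20.3). The claudin-like gene nsy-4 had one of 43.1, 1549 bp upstream (21.8 and 20.7). By group, 2 of 9 cadherin-catenin partners, 2 of 7 polarity genes and 1 of 10 apical membrane and cytoskeleton genes had a thresholded peak. The counts were 2 of 6 for claudin-like genes, 0 of 10 for other cadherins and 0 of 3 for Patched-family genes. Over all protein-coding genes the share was 6.37%. Median windows ran from 3.95 kb for claudin-like genes to 19.3 kb for cadherin-catenin partners, and the polarity count includes the lgl-1 peak upstream of cdo-1. A difference between groups was not tested. The pooled list had a peak at 27 of the 45, 60% against 24.1% of all genes, again with long windows. Per 10 kb this was 0.829, close to the 0.854 of the 9 genes, against 0.589 over all protein-coding gene windows.

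**Figure D4:**
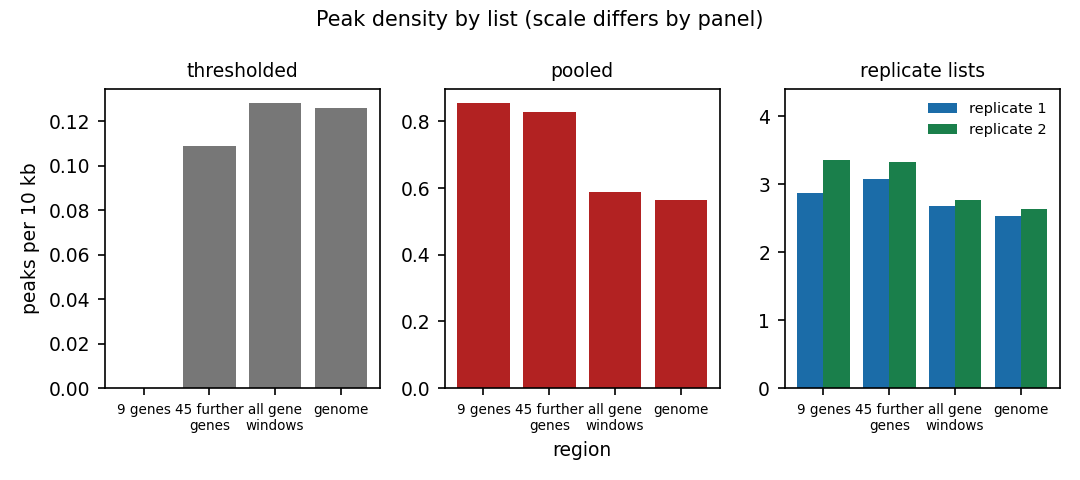
Bars give peaks per 10 kb in the windows of the 9 genes, of the 45 further genes, of all protein-coding genes and over the genome, for the thresholded set, the pooled list and each replicate list. The 9 genes have 0 thresholded peaks and 0.854 pooled peaks per 10 kb, against 0.126 and 0.564 over the genome.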

How the data were processed

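Per the file lists deposited with the libraries, peaks and background were called by the authors on the alignments of each replicate and of both pooled, with control alignments. The authors then cut the pooled list at an irreproducible discovery rate. No aligner, peak caller or version is given in the sources used here. Peaks carry a signal, which is the strength set by the authors' caller on an unstated scale. They also carry the −log10 of a q-value, as the authors deposited it. Signals and ranks were described inside each list. Read depth is unknown. Positions are 1-based ce11 (WBcel235, Ensembl release 115), and the ce10 lists were not used.

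A peak counted when 1 bp overlapped a gene window, and a replicate's value at a pooled peak is its strongest overlapping peak. The 9 genes, the wider list and the counts were chosen with earlier results of these data known, so no test was run and shares are set beside all 19973 protein-coding genes. All 9 genes are named, with the nearest start to each peak and the wider genes that had a thresholded peak, except 1 whose values are not reported here. Python 3.11.15, numpy 2.4.6, pandas 2.3.3 and matplotlib 3.10.9 were used, and the overlap counts were tested on simulated data.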

Additional observations from a re-analysis of the deposited data

How the results depend on the processing

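The count of 0 of the 9 genes, and of 0 peaks, in the thresholded set was the same with only the stronger peaks of the set, those above its median, with the summit in place of 1 bp overlap, with 1 kb or 5 kb upstream, with promoter windows and with windows cut at the neighbouring gene. Leaving out a replicate, with as many strongest peaks of the other, gave 1 gene and 1 peak each time. The whole pooled list gave 7 genes and 14 peaks, by its construction with more peaks. The 7 genes with a pooled peak ranged from 5 to 7 over alternatives chosen after seeing the data. From equally long lists there were 7 without replicate 1 and 5 without replicate 2. The shares of all genes in those lists were not computed. Against 6 peaks with a motif, WGATAR within 25 bp was at 3 and within 100 bp at 9, by the length searched, and GATA alone within 50 bp at 7. The wider list had 6 to 8 genes without a replicate, 4 in promoter windows and 27 in the whole pooled list, against 7. Over all protein-coding genes the shares were 3.96% in promoter windows and 24.1% in the whole pooled list. No paired analysis was possible because there is only 1 group. Peak lists carry no read depth, so a site under the threshold is not shown to be unbound.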

Other observations

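Some wider genes had their strongest pooled peak at about the signal of the sma-1 intron peak, 40.6, just under the threshold. They were picked out after their values were seen. jac-1, for the p120-catenin relative, had an intronic peak of signal 40.8 (25.6 in replicate 1 and 13.9 in replicate 2) with 4 WGATAR matches within 50 bp of the summit. The beta-spectrin gene unc-70 had an intronic one of 40.3 (17.2 and 21.0), and the non-muscle myosin gene nmy-2 one in a coding exon of 40.0 (20.6 and 19.4). afd-1, for afadin, had one in a coding exon of 39.96 (20.2 and 21.1). The last 3 had no WGATAR within 50 bp.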
